A study of Arabidopsis thaliana with 18 samples.

Results

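Seeds decide whether to germinate partly from the light and the temperature they meet, and the 10 genes described here encode regulators of that decision in Arabidopsis thaliana. They were chosen by their locus codes, and all 10 were found among the 30014 genes of the deposited table. Total RNA had been hybridised to 18 Affymetrix AGRONOMICS1 arrays, a tiling design for this plant, in 6 groups of 3 arrays. The groups came from the mutant rdo5-1 and from NIL-DOG1, which the labels call wild type, each as siliques 14 days after pollination, as freshly harvested dry seeds and as seeds imbibed for 6 h. RDO5 encodes a protein phosphatase-like regulator of seed dormancy and DOG1 a main dormancy gene. NIL-DOG1 is known as a near-isogenic line with a DOG1 allele from a strongly dormant accession, and the labels do not give the background of rdo5-1. Plants of both lines were raised under a 16 h light and 8 h dark cycle at 22 and 16 °C. How the seeds were lit and at which temperature they were kept during imbibition is not given in the sources used here. Replicates are called biological, without a word on what separates them, so the p-values measure the spread between these arrays, which may in part be technical.

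In light-requiring seeds, the phytochromes PHYA and PHYB sense far-red and red light and trigger the breakdown of phytochrome-interacting factors (PIFs), a group of basic helix-loop-helix (bHLH) transcription factors. PIF1 is the PIF best known for holding seeds dormant in the dark. It acts in part through SOMNUS (SOM), a zinc finger protein that shifts the balance of gibberellin and abscisic acid, and it acts together with the Dof factor DAG1, which also represses germination. SPATULA (SPT) is a related bHLH factor that restrains germination of dormant seeds and responds to temperature, and MOTHER OF FT AND TFL1 (MFT) is a phosphatidylethanolamine-binding protein of seeds that responds to abscisic acid and gibberellin.

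The values are log2 expression levels, 1 per gene and array, made with RMA by the authors. Levels of different genes are not comparable on this scale, because probes differ in brightness, so fold changes compare a gene only with itself, and a percentile among all genes is given only to show how near a value lies to the dim or the bright end of the scale. A gene was called when limma's test, adjusted over all 30014 genes by the Benjamini-Hochberg method, gave an adjusted p under 0.05. A log2 fold change is a difference of group means of 3 arrays, and its error is the standard error (SE) of the fit. For each gene this SE draws on the spread within all 6 groups, also those not compared. RDO5 itself was lower in rdo5-1 at each stage, by 1.001 (siliques), 0.93 (dry seeds) and 1.34 (imbibed seeds) on the log2 scale. DOG1 was not called at any stage, with log2 fold changes of 0.02 (siliques), 0.29 (dry seeds) and 0.10 (imbibed seeds). Replicate arrays of a group correlated at r = 0.990 to 0.995 over all genes.

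The stage labels were checked against marker genes. The mean log2 level of 6 green tissue markers was 4.84 to 5.09 in the 12 seed arrays, against 10.06 to 10.23 in the 6 silique arrays, and that of 6 silique valve and margin markers was 3.41 to 3.64 in seeds, against 5.44 to 5.62 in siliques. The mean of 6 seed markers was 13.90 to 14.01 in seeds and 11.79 to 12.26 in siliques. Of these, 2 were called higher in dry seeds in each genotype, the late embryogenesis genes EM1 (3.40 in rdo5-1 and 3.64 in NIL-DOG1, as log2 fold changes) and EM6 (8.14 and 8.90), and they carry the difference in the mean. The storage protein gene SESA3 was called lower, at -0.18 and -0.26, and 3 were not called. Storage and oil body transcripts were thus about as bright in the silique arrays as in dry seeds. The highest value of the data was 14.67, so these markers lay near the bright end, where differences may be flattened. In dry seeds against siliques, the green markers were called lower for 6 of 6 genes in both genotypes. The valve markers were called lower for 5 of 6 in rdo5-1 and 6 of 6 in NIL-DOG1. Of 5 seed coat markers, 4 were lower in both, and the remaining 1 was higher in rdo5-1 and not called in NIL-DOG1. In each seed group, 4 of these 5 lay below percentile 30 of all gene levels. Of 3 endosperm markers, 1 was higher and 0 were lower in rdo5-1, and 1 was higher and 1 lower in NIL-DOG1. Silique arrays thus had higher levels of green tissue and valve markers than seed arrays, beside bright storage markers of seeds. The arrays do not show which tissue the green marker transcripts came from. Green tissue and valve markers, and EM1 and EM6, moved with every comparison of dry seeds with siliques below. Their part in those differences was not tested. In such bulk samples, fewer cells of a type and less RNA per cell cannot be told apart.

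Between siliques and dry seeds, all 10 genes changed in both genotypes: 6 were higher and 4 lower in dry seeds. PHYA, PHYB, PIF1, PIF3, PIF6 and SOM were the higher ones, and PIF4, SPT, DAG1 and MFT the lower ones. Over all genes, 52.9% were called in rdo5-1 (27.2% higher and 25.7% lower) and 54% in NIL-DOG1 (27.4% higher and 26.6% lower), so that a call alone was common in this comparison. Of the genes called, 51.4% were higher in rdo5-1 and 50.8% in NIL-DOG1, and with each array centred on its median 71.3% and 72.4% were. The members' median absolute log2 fold change was 1.20 in rdo5-1 and 1.13 in NIL-DOG1, against 0.33 and 0.35 over all genes. A called change of at least 2-fold was seen for 6 members in rdo5-1 and 5 in NIL-DOG1, where 22% and 22.2% of all genes had one. The counts differed through PIF1, whose log2 fold changes of 1.16 in rdo5-1 and 0.999 in NIL-DOG1 lay on either side of that limit. The arrays of dry seeds and siliques did not overlap for any of the 10 genes in either genotype, which held for 59.9% of all genes in rdo5-1 and 58.4% in NIL-DOG1.

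**Figure D1:**
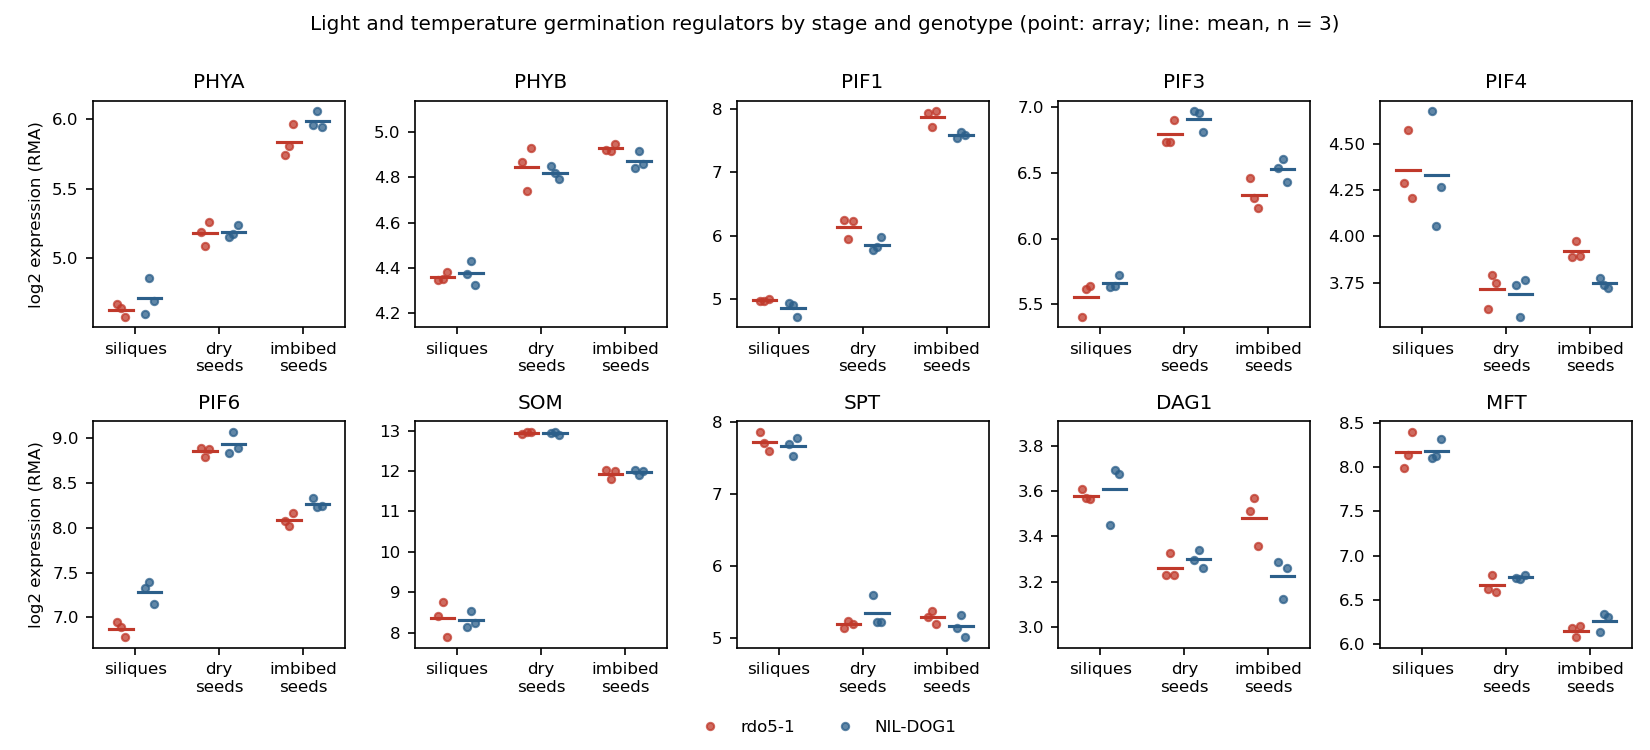
Log2 expression of the 10 genes by stage (horizontal axis) in rdo5-1 (left in each pair) and NIL-DOG1 (right), with points for arrays and lines for means of 3 arrays; each panel has its own vertical axis, spanning at least 1 log2 unit. SOM lies between 12.88 and 12.98 in the dry seed arrays, above its silique arrays, and PIF1 is highest in imbibed seeds of both genotypes.

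Between dry seeds and seeds imbibed for 6 h, 7 members were called in rdo5-1, 3 higher and 4 lower, against 28.3% of all genes (16.4% higher and 11.9% lower). In NIL-DOG1 6 were called, 2 higher and 4 lower, against 24.9% of all genes (14.2% higher and 10.6% lower). PIF1 and PHYA were higher in imbibed seeds of both genotypes, and PIF3, PIF6, SOM and MFT were lower in both. Arrays did not overlap for 8 members in rdo5-1 and 6 in NIL-DOG1, which held for 41.9% and 38.2% of all genes. A called change of at least 2-fold was found for PIF1 and SOM in rdo5-1 and for PIF1 in NIL-DOG1, and for 3.81% and 3.19% of all genes. SOM, at -1.003 in rdo5-1 and -0.956 in NIL-DOG1, lay close to that limit in both. The comparison of dry seeds with siliques and that of imbibed with dry seeds share the dry seed arrays, so a deviation of those arrays would enter both with opposite sign.

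**Figure D2:**
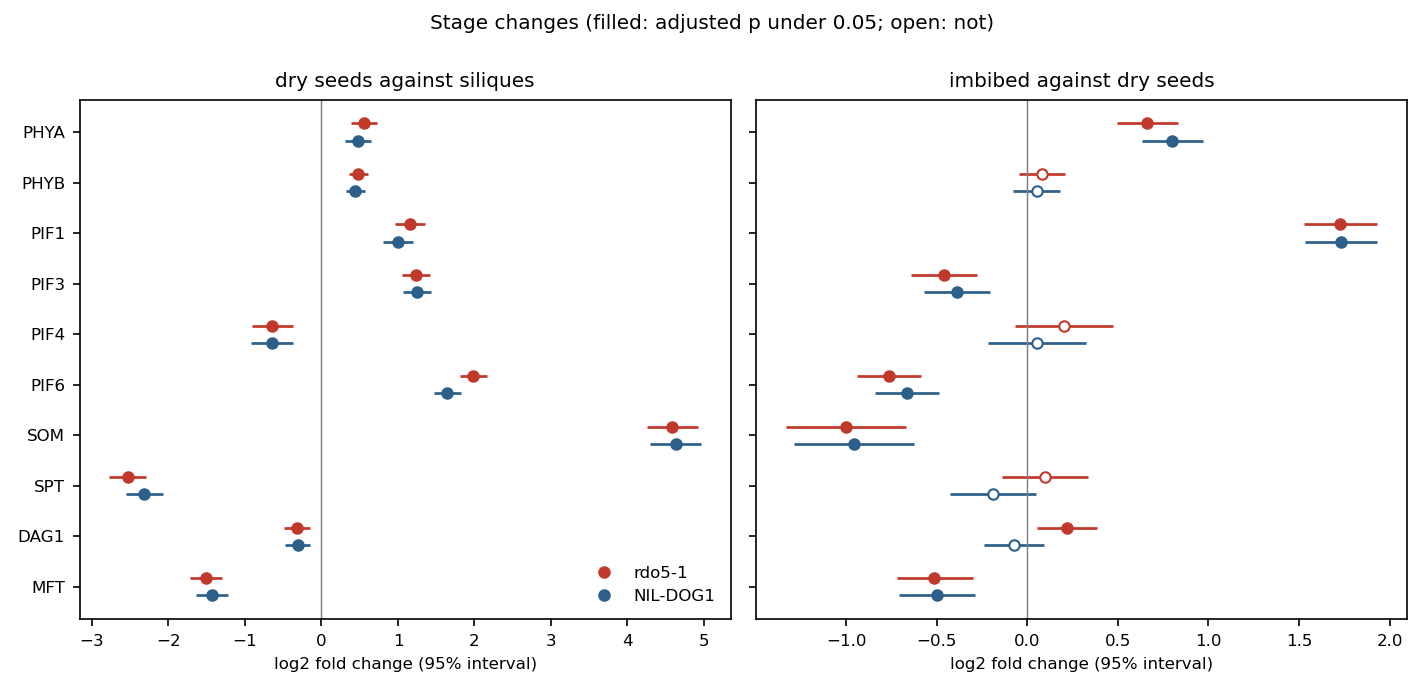
Log2 fold changes with 95% intervals of the 10 genes between stages, in rdo5-1 (upper of each pair) and NIL-DOG1 (lower); filled points were called and the 2 panels have different scales. PIF1 is higher at both steps, whereas PIF3, PIF6 and SOM are higher in dry seeds than in siliques and lower after imbibition.

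PHYA (AT1G09570), the far-red sensor that is known to accumulate in imbibed seeds, was higher at each successive stage. Its log2 levels were 4.67, 4.64 and 4.58 in rdo5-1 siliques and 4.59, 4.86 and 4.69 in NIL-DOG1 siliques. Dry seeds had 5.19, 5.09 and 5.26 in rdo5-1 and 5.15, 5.18 and 5.24 in NIL-DOG1. Imbibed seeds had 5.74, 5.81 and 5.97 in rdo5-1 and 5.96, 6.06 and 5.94 in NIL-DOG1. The 3 stages did not overlap, whereas the genotypes overlapped within each stage. The log2 fold change of imbibed against dry seeds was 0.66 ± 0.08 in rdo5-1 (adjusted p = 7.7e-06) and 0.80 ± 0.08 in NIL-DOG1 (adjusted p = 1.2e-06).

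PHYB (AT2G18790), the main red light sensor, was higher in dry seeds than in siliques by 0.48 ± 0.06 in rdo5-1 (adjusted p = 2.6e-06) and 0.44 ± 0.06 in NIL-DOG1 (adjusted p = 7.1e-06) on the log2 scale. Its 6 silique arrays lay at 4.33 to 4.43 and its 12 seed arrays at 4.74 to 4.95. No call was made for imbibition: the log2 fold change was 0.08 in rdo5-1 (95% interval -0.05 to 0.21) and 0.05 in NIL-DOG1 (-0.08 to 0.18). The difference between dry seeds and siliques depended on the scaling: it was 0.77 in rdo5-1 and 0.75 in NIL-DOG1 after a further quantile normalization, and for PHYA 0.87 and 0.81, against 0.55 and 0.47 for PHYA as deposited. With arrays centred on their medians, PHYB had 0.71 and 0.70 and PHYA 0.78 and 0.73. All these values were called. Scaling moved other members as well, which the SE does not cover. In rdo5-1, quantile normalization took PIF1 from 1.16 to 1.49 and PIF3 from 1.24 to 1.51. Median centring took SPT from -2.54 to -2.31 and MFT from -1.51 to -1.29 in rdo5-1. These 4 genes stayed called.

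Among the other phytochromes and the enzymes that make their chromophore (PHYC, PHYD, PHYE, HY1 and HY2), 2 were called higher and 1 lower in dry seeds than in siliques in each genotype. Of all genes, 52.9% were called there in rdo5-1 and 54% in NIL-DOG1. PHYE was higher by 1.62 in rdo5-1 and 1.59 in NIL-DOG1, and PHYD by 1.13 and 1.01, all on the log2 scale. HY1, the haem oxygenase of chromophore synthesis, had log2 fold changes of -1.04 and -0.95. After imbibition, 2 were higher and 2 lower in rdo5-1, and 1 higher and 1 lower in NIL-DOG1. The shares of all genes called were 28.3% and 24.9%. PHYE changed by -0.31 in rdo5-1 and -0.32 in NIL-DOG1, so that it moved the opposite way to PHYA. PHYD had 0.32 in rdo5-1 (adjusted p = 0.00221) and 0.23 in NIL-DOG1 (adjusted p = 0.0205). The NIL-DOG1 call of PHYD was lost without NIL-DOG1 dry seed replicate 3 (0.101) or NIL-DOG1 imbibed seed replicate 1 (0.0675) or 2 (0.0947). PHYC had 0.31 in rdo5-1 (adjusted p = 0.00268) and 0.17 in NIL-DOG1, where it was not called (adjusted p = 0.103). HY1 had -0.20 in rdo5-1 (adjusted p = 0.0325), a call lost without any 1 rdo5-1 dry seed array or without rdo5-1 imbibed seed replicate 1 or 3 (adjusted p 0.0538 to 0.146), and -0.18 in NIL-DOG1, not called (adjusted p = 0.0506).

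PIF1 (AT2G20180), the germination repressor that phytochromes remove in the light, was higher at each successive stage. The silique arrays had log2 levels of 4.98, 4.97 and 5.01 in rdo5-1 and 4.94, 4.91 and 4.72 in NIL-DOG1. Dry seeds had 6.24, 5.95 and 6.24 in rdo5-1 and 5.78, 5.82 and 5.98 in NIL-DOG1. Imbibed seeds had 7.94, 7.71 and 7.96 in rdo5-1 and 7.54, 7.64 and 7.59 in NIL-DOG1. No imbibed array overlapped a dry one, and no dry array a silique one. The log2 fold change of imbibed against dry seeds was 1.73 ± 0.10 in rdo5-1 (adjusted p = 1.8e-09) and 1.73 ± 0.10 in NIL-DOG1 (adjusted p = 2.2e-09), a ratio of 3.31 and 3.32 on the linear scale. This placed PIF1 at percentile 99.6 of the imbibition fold changes of all genes in rdo5-1 and at percentile 99.8 in NIL-DOG1. Dry seeds exceeded siliques by 1.16 ± 0.10 in rdo5-1 and 0.999 ± 0.10 in NIL-DOG1. The order of the 6 group means was imbibed, dry and silique, with rdo5-1 above NIL-DOG1 at each stage, and only the dry seed arrays of the genotypes overlapped.

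PIF3 (AT1G09530), known best from seedling greening and elongation, peaked in dry seeds. Dry seed arrays had 6.74, 6.74 and 6.91 in rdo5-1 and 6.97, 6.96 and 6.82 in NIL-DOG1, against 5.40, 5.62 and 5.64 in rdo5-1 siliques and 5.63, 5.64 and 5.72 in NIL-DOG1 siliques. Imbibed seeds had 6.47, 6.31 and 6.23 in rdo5-1 and 6.54, 6.61 and 6.44 in NIL-DOG1, between both other stages. Dry seeds differed from siliques by 1.24 ± 0.09 in rdo5-1 and 1.25 ± 0.09 in NIL-DOG1 on the log2 scale, and imbibed from dry seeds by -0.46 ± 0.09 (adjusted p = 5.8e-04) in rdo5-1 and -0.39 ± 0.09 (adjusted p = 0.00259) in NIL-DOG1.

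PIF6 (AT3G62090) also peaked in dry seeds. This member of the family is known from work on seed dormancy in which its transcript forms had different effects, and the deposited value per gene does not separate transcript forms. Its log2 levels were 6.95, 6.89 and 6.78 in rdo5-1 siliques and 7.33, 7.39 and 7.15 in NIL-DOG1 siliques. Dry seeds had 8.89, 8.79 and 8.88 in rdo5-1 and 8.83, 9.08 and 8.89 in NIL-DOG1. Imbibed seeds had 8.08, 8.02 and 8.17 in rdo5-1 and 8.34, 8.23 and 8.25 in NIL-DOG1. The stages did not overlap in either genotype. Dry seeds differed from siliques by 1.98 ± 0.08 in rdo5-1 (adjusted p = 2.9e-12) and 1.65 ± 0.08 in NIL-DOG1 (adjusted p = 3.2e-11). Imbibition then gave -0.76 ± 0.08 in rdo5-1 and -0.66 ± 0.08 in NIL-DOG1.

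PIF4 (AT2G43010), a factor of warmth responses in seedlings, was lower in dry seeds than in siliques, with a log2 fold change of -0.64 ± 0.13 in rdo5-1 (adjusted p = 3.7e-04) and -0.64 ± 0.13 in NIL-DOG1 (adjusted p = 3.6e-04). Its silique arrays were spread over 4.20 to 4.57 in rdo5-1 and 4.06 to 4.68 in NIL-DOG1, and its dry seed arrays over 3.61 to 3.79 and 3.56 to 3.77. With arrays centred on their medians the log2 fold change shrank to -0.41 (adjusted p = 0.0101) and -0.39 (adjusted p = 0.0139). Imbibed seeds had 3.89, 3.98 and 3.90 in rdo5-1 and 3.78, 3.74 and 3.72 in NIL-DOG1. In seeds PIF4 stood at percentile 41.5 to 47.7 of all gene levels, where background may make up part of the signal. The rdo5-1 arrays of imbibed and dry seeds did not overlap, but the log2 fold change of 0.20 was not called by limma (adjusted p = 0.271). Its SE draws on all groups: standard deviations were 0.194 and 0.314 in siliques of rdo5-1 and NIL-DOG1. In rdo5-1 they were 0.097 in dry and 0.048 in imbibed seeds.

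SPT (AT4G36930), which also acts in carpel margins and fruit, was the bHLH gene among the members with the largest fall between siliques and dry seeds. Dry seeds had log2 levels of 5.14, 5.24 and 5.20 in rdo5-1 and 5.61, 5.23 and 5.22 in NIL-DOG1, against 7.87, 7.71 and 7.60 in rdo5-1 siliques and 7.69, 7.53 and 7.78 in NIL-DOG1 siliques. Imbibed seeds, with 5.29, 5.38 and 5.19 in rdo5-1 and 5.15, 5.33 and 5.01 in NIL-DOG1, overlapped dry seeds. Across the step into dry seeds its log2 fold change was -2.54 ± 0.11 in rdo5-1 (adjusted p = 5.9e-12) and -2.32 ± 0.11 in NIL-DOG1 (adjusted p = 2.0e-11), which makes dry seeds 5.80-fold lower in rdo5-1 and 4.98-fold lower in NIL-DOG1. For imbibition the values were 0.10 (95% interval -0.14 to 0.34) in rdo5-1 and -0.19 (-0.43 to 0.05) in NIL-DOG1, neither called.

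Of 9 further PIF and related bHLH genes, 1 was higher and 4 were lower in dry seeds than in siliques in each genotype. That is near the share of all genes called, 52.9% in rdo5-1 and 54% in NIL-DOG1. PIF7, a factor of shade and warmth responses, was the higher one, with a log2 fold change of 1.60 in rdo5-1 and 1.53 in NIL-DOG1. ALC, the closest relative of SPT and known for its part in fruit opening, had -2.37 and -2.35. HFR1, a factor of far-red signalling, had -2.44 and -1.67, and PIF5 had -1.06 and -1.06. In dry seeds ALC stood at percentile 19.1 of all gene levels in rdo5-1 and 23.6 in NIL-DOG1, and HFR1 at percentile 16.2 and 32.4. Near the dim end background may compress fold changes, so the sizes of both may be understated, which was not tested. After imbibition PIF5 alone of the 9 was called, where 28.3% of all genes were called in rdo5-1 and 24.9% in NIL-DOG1. PIF5 had -0.44 (adjusted p = 4.1e-04) in rdo5-1 and -0.41 (adjusted p = 8.1e-04) in NIL-DOG1, opposite in sign to PIF1.

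SOM (AT1G03790) had the largest fold change of the 10 genes. Dry seeds had log2 levels of 12.91, 12.96 and 12.95 in rdo5-1 and 12.95, 12.98 and 12.88 in NIL-DOG1, against 8.42, 8.75 and 7.89 in rdo5-1 siliques and 8.14, 8.53 and 8.25 in NIL-DOG1 siliques. Imbibed seeds had 12.03, 11.79 and 11.99 in rdo5-1 and 12.03, 11.91 and 11.997 in NIL-DOG1. All dry seed arrays lay above all imbibed arrays, and these above all silique arrays. Against siliques, dry seeds were higher by 4.59 ± 0.16 in rdo5-1 (adjusted p = 2.2e-13) and 4.63 ± 0.16 in NIL-DOG1 (adjusted p = 2.0e-13), a ratio of 24.03 and 24.77. In dry seeds SOM stood at percentile 99.7 of all gene levels in rdo5-1 and 99.8 in NIL-DOG1, near the bright end of the scale. After imbibition it fell by 1.003 in rdo5-1 (SE 0.16, adjusted p = 1.1e-04) and by 0.96 in NIL-DOG1 (SE 0.16, adjusted p = 2.0e-04) on the log2 scale, while PIF1 rose in the same arrays.

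DAG1 (AT3G61850) was dim throughout, at percentile 24.6 to 37.0 of all gene levels, where background makes up part of the signal and may compress fold changes. Dry seeds had 3.23, 3.33 and 3.23 in rdo5-1 and 3.30, 3.34 and 3.26 in NIL-DOG1, against 3.61, 3.57 and 3.56 in rdo5-1 siliques and 3.45, 3.69 and 3.68 in NIL-DOG1 siliques. The log2 fold change was -0.32 ± 0.08 in rdo5-1 (adjusted p = 0.0022) and -0.31 ± 0.08 in NIL-DOG1 (adjusted p = 0.00268). Centring each array on its median ended both calls, with -0.09 (adjusted p = 0.273) in rdo5-1 and -0.06 (adjusted p = 0.501) in NIL-DOG1. That centring moved the median of all genes to 0.29 in rdo5-1 and 0.30 in NIL-DOG1, where the values as deposited gave 0.06 and 0.05. Imbibed seeds had 3.51, 3.57 and 3.36 in rdo5-1 and 3.29, 3.12 and 3.26 in NIL-DOG1. The rise of 0.22 ± 0.08 in rdo5-1 was called at an adjusted p of 0.045, and the value of -0.08 in NIL-DOG1 was not (adjusted p = 0.577). The rdo5-1 call was lost without any 1 of 13 of the 18 arrays (adjusted p 0.0506 to 0.158) and held without NIL-DOG1 imbibed seed replicate 2, rdo5-1 imbibed seed replicate 3 or any 1 NIL-DOG1 silique array.

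MFT (AT1G18100) fell at both steps. Its silique arrays had 7.99, 8.14 and 8.40 in rdo5-1 and 8.11, 8.12 and 8.32 in NIL-DOG1. Dry seeds had 6.62, 6.78 and 6.59 in rdo5-1 and 6.74, 6.74 and 6.79 in NIL-DOG1. Imbibed seeds had 6.18, 6.08 and 6.20 in rdo5-1 and 6.13, 6.33 and 6.31 in NIL-DOG1. No arrays of different stages overlapped. Against siliques, dry seeds had a log2 fold change of -1.51 ± 0.10 in rdo5-1 (adjusted p = 8.3e-10) and -1.43 ± 0.10 in NIL-DOG1 (adjusted p = 1.8e-09). That of imbibed against dry seeds was -0.51 ± 0.10 in rdo5-1 (adjusted p = 7.7e-04) and -0.50 ± 0.10 in NIL-DOG1 (adjusted p = 0.00113).

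Among 13 relatives of SOM, DAG1 and MFT, 3 were higher and 5 lower in dry seeds than in siliques of rdo5-1, and 3 higher and 6 lower in NIL-DOG1. Calls covered 52.9% and 54% of all genes. TZF1, which like SOM encodes a tandem zinc finger protein, had log2 fold changes of 2.96 in rdo5-1 and 2.98 in NIL-DOG1, whereas the zinc finger gene PEI1 had -4.27 and -4.22. FT, the flowering signal of the same protein family as MFT, had -8.27 and -7.99, in the same direction as MFT and as the green tissue markers. In dry seeds FT stood at percentile 13.9 in rdo5-1 and 22.3 in NIL-DOG1, near the dim end, so its size may be understated too. The gene AT1G29160, listed as a relative of DAG1, had -3.70 and -3.93. After imbibition none of the 13 was higher and 4 were lower in each genotype, where 28.3% (rdo5-1) and 24.9% (NIL-DOG1) of all genes were called. The zinc finger genes TZF1, at -2.10 in rdo5-1 and -2.02 in NIL-DOG1, and OZF2, at -1.72 and -1.85, fell in the same arrays as SOM.

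Downstream light signalling, of which 13 of 15 listed genes were in the table used, had 9 genes higher and 2 lower in dry seeds than in siliques in each genotype. The shares of all genes called were 52.9% in rdo5-1 and 54% in NIL-DOG1. BBX21, a B-box factor that promotes light responses, had 2.98 in rdo5-1 and 2.99 in NIL-DOG1. The blue light receptor gene CRY2 had 1.66 and 1.39, and FHY1, which carries phytochrome A into the nucleus, -1.54 and -1.42. After imbibition these 3 genes had the opposite sign, with 4 of the 13 higher and 2 lower in rdo5-1, and 4 higher and 4 lower in NIL-DOG1. Over all genes, 28.3% and 24.9% were called. CRY2 changed by -1.11 in rdo5-1 and -1.03 in NIL-DOG1, BBX21 by -0.61 and -0.45, and FHY1 by 0.81 and 0.50. HYH, a bZIP factor of light responses, was higher by 1.39 in rdo5-1 and 0.81 in NIL-DOG1.

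Of 19 genes known to lie downstream of PIF1, SOM or DAG1, 8 were higher and 6 lower in dry seeds than in siliques in each genotype. Among all genes, 52.9% were called in rdo5-1 and 54% in NIL-DOG1. The arginase genes, reported as SOM-dependent in light responses of seeds, split: ARGAH2 had -5.31 in rdo5-1 and -5.15 in NIL-DOG1, and ARGAH1 1.69 and 1.82. CYP707A2, the enzyme that breaks down abscisic acid in seeds, had 1.67 and 1.57. After imbibition 6 of the 19 were higher and 6 lower in rdo5-1, and 5 higher and 4 lower in NIL-DOG1. The shares over all genes were 28.3% and 24.9%. The DELLA repressor genes RGA, at 1.28 in rdo5-1 and 1.05 in NIL-DOG1, and GAI, at 0.94 and 0.81, rose in the same arrays as PIF1. PIF1 is known to bind their promoters, but a link between these rises was not tested. JMJ22, a histone demethylase gene of light-induced germination, had 1.16 in rdo5-1 and 0.94 in NIL-DOG1. RVE2, a MYB-like repressor of germination, had -1.76 and -1.74.

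The comparison of rdo5-1 with NIL-DOG1 asks whether these regulators differed in the rdo5-1 mutant. At no single stage was any of the 10 called by limma. Of all genes, 0.2% were called in siliques, 0.137% in dry seeds and 0.633% after imbibition. At an unadjusted p under 0.05 there were 1 member in siliques (PIF6), 1 in dry seeds (PIF1) and 4 in imbibed seeds (PIF1, PIF3, PIF6 and DAG1), where 8.89%, 8.34% and 8.31% of all genes passed. All arrays of one genotype lay apart from those of the other for 2 members in siliques (PIF1 higher and PIF6 lower in rdo5-1), 0 in dry seeds and 4 in imbibed seeds (PIF1, PIF4 and DAG1 higher, PIF6 lower), and for 12.5%, 14.7% and 15.5% of all genes. Over the 10 genes, the 95% intervals of the log2 fold change lay within -0.59 to 0.38 (siliques), -0.40 to 0.48 (dry seeds) and -0.37 to 0.48 (imbibed seeds).

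**Figure D3:**
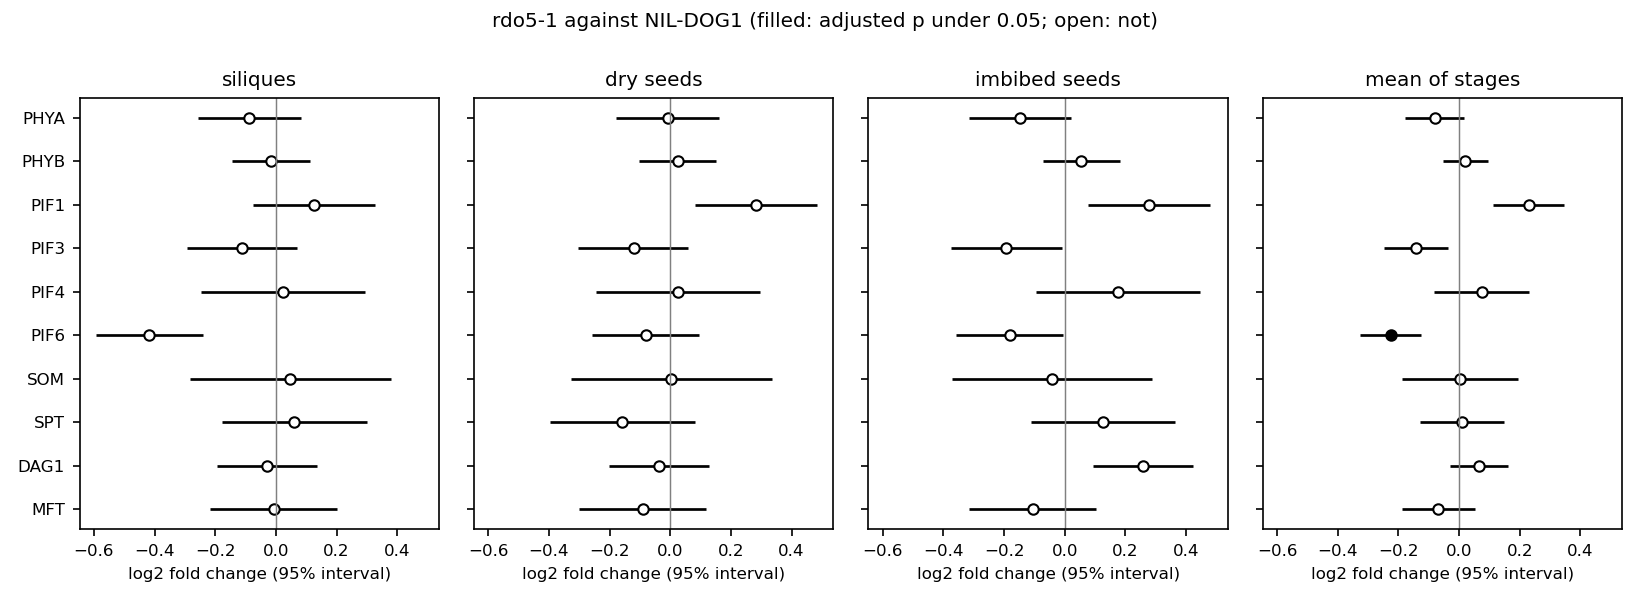
Log2 fold changes with 95% intervals of rdo5-1 against NIL-DOG1 for the 10 genes at each stage and averaged over the 3 stages; a filled point was called. PIF6 lies below 0 in each panel and PIF1 above 0, and only the mean over stages of PIF6 was called.

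PIF6 had the largest genotype difference, in siliques. Its arrays there, listed above, did not overlap: the highest rdo5-1 array lay at 6.95 and the lowest NIL-DOG1 array at 7.15. The log2 fold change was -0.42 ± 0.08 with an adjusted p of 0.0631. That became 0.0491 without NIL-DOG1 dry seed replicate 2 and 0.0331 without NIL-DOG1 silique replicate 3. Leaving out any 1 of the other 16 arrays gave no call. Over all 25 alternative fits the adjusted p of limma ran from 0.0331 to 0.551. The mean log2 level of 5 seed coat markers was 4.31 to 4.48 in the rdo5-1 silique arrays and 4.06 to 4.29 in the NIL-DOG1 silique arrays, with 0 of the 5 called by limma and 1 at an unadjusted p under 0.05. Their part in the PIF6 difference was not tested. For PIF6, dry seeds had -0.08 (adjusted p = 0.867) and imbibed seeds -0.18 (adjusted p = 0.579). Averaged over the 3 stages PIF6 was lower in rdo5-1, with a log2 fold change of -0.23 ± 0.05 (adjusted p = 0.0359), the only member called, with 0.95% of all genes called and 0.34% called lower. That call was lost without any 1 of 14 of the 18 arrays (log2 fold change -0.23 to -0.20, adjusted p 0.0562 to 0.0825). It held without NIL-DOG1 dry seed replicate 1, NIL-DOG1 silique replicate 3, rdo5-1 imbibed seed replicate 3 or rdo5-1 silique replicate 1.

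PIF1 leaned the other way. rdo5-1 exceeded NIL-DOG1 by 0.13 ± 0.10 in siliques, by 0.28 ± 0.10 in dry seeds and by 0.28 ± 0.10 after imbibition, none of them called. The mean over stages was 0.23 ± 0.06, with an adjusted p of 0.0649, just outside the threshold. It was 0.0276 without rdo5-1 dry seed replicate 2, which had 5.95 beside 6.24 and 6.24, and 0.0351 without rdo5-1 imbibed seed replicate 2. Leaving out any 1 of the other 16 arrays gave no call. Over all 24 alternative fits this mean lay between 0.21 and 0.26, with an adjusted p of 0.0276 to 0.139. PIF3 had a mean of -0.14 ± 0.05 (adjusted p = 0.26), negative at each stage.

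For the remaining members the mean over stages lay between -0.08 for PHYA and 0.07 for PIF4. SOM differed by 0.05 in siliques, 0.004 in dry seeds and -0.04 after imbibition, with intervals of -0.28 to 0.38, -0.33 to 0.34 and -0.37 to 0.29. These intervals draw on the spread of all groups. The standard deviation of SOM was 0.436 (rdo5-1) and 0.201 (NIL-DOG1) in siliques, against 0.025 and 0.047 in dry seeds. DAG1 in imbibed seeds had 3.51, 3.57 and 3.36 in rdo5-1 and 3.29, 3.12 and 3.26 in NIL-DOG1, without overlap, and a log2 fold change of 0.26 ± 0.08 that was not called (adjusted p = 0.222).

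Whether the stage changes differed between genotypes was tested directly, as the genotype effect in dry seeds minus that in siliques and in imbibed minus dry seeds. None of the 10 was called by limma in either test, in which 0.05% and 0.02% of all genes were called, and 1 member in each had an unadjusted p under 0.05, as did 7.34% and 6.49% of all genes. These were PIF6 in the first, with 0.34 ± 0.12 (adjusted p = 0.538), and DAG1 in the second, with 0.30 ± 0.11 (adjusted p = 0.639). The DAG1 rise called after imbibition in rdo5-1 and not in NIL-DOG1 was therefore not shown to differ between them. Of the 59 measured genes of the 5 companion lists, HFR1 and HYH among them, 0 were called in either test.

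Among the companion lists, single-stage genotype calls were made only in imbibed seeds, for 2 of the 19 genes downstream of PIF1, SOM and DAG1. Both were higher in rdo5-1, and 0.633% of all genes were called at that stage. The lists were chosen with earlier results known, and ABI4, 1 of the 2, was already known to differ in these data. The count is therefore no independent result about that list. In siliques and dry seeds 0 of the 59 measured genes of the 5 lists were called by limma. At an unadjusted p under 0.05, 5 passed at each of these stages, where 8.89% and 8.34% of all genes did. The imbibed stage had 13 of the 59 below that limit, against 8.31% of all genes. The way the lists were chosen limits these counts too. GNL, a GATA factor of greening that the gene table names CGA1, had 6.10, 5.89 and 5.97 in imbibed rdo5-1 seeds, against 5.43, 5.55 and 5.49 in imbibed NIL-DOG1 seeds. These arrays did not overlap, and the log2 fold change was 0.50 ± 0.08 (adjusted p = 0.00502). With only the 6 imbibed seed arrays fitted, the call was lost (adjusted p = 0.0973). Dry seeds had 0.32 (adjusted p = 0.154), siliques 0.11 (adjusted p = 0.758), and the mean over stages was 0.31 ± 0.04 (adjusted p = 0.00262). Its paralogue GNC had 0.45 ± 0.10 in imbibed seeds (adjusted p = 0.054).

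ABI4, a factor of abscisic acid signalling that was already known to differ in these data, was the other gene called in imbibed seeds, with 6.49, 6.30 and 6.64 in rdo5-1 and 5.95, 5.85 and 5.84 in NIL-DOG1. Its log2 fold change of 0.59 ± 0.11 (adjusted p = 0.0162) lost the call without NIL-DOG1 imbibed seed replicate 2 (0.068) or 3 (0.0778), or without rdo5-1 imbibed seed replicate 1 (0.0802) or 3 (0.0964), and with the 6 imbibed seed arrays alone (0.105). HY1 was higher in rdo5-1 in the mean over stages, by 0.18 ± 0.04 (adjusted p = 0.0287). Leaving out any 1 of 9 of the 18 arrays ended that call (adjusted p 0.0525 to 0.0692). These were NIL-DOG1 dry seed replicates 2 and 3, NIL-DOG1 imbibed seed replicate 1, NIL-DOG1 silique replicate 1, rdo5-1 dry seed replicates 1 and 2, rdo5-1 imbibed seed replicates 1 and 2, and rdo5-1 silique replicate 2.

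**Figure D4:**
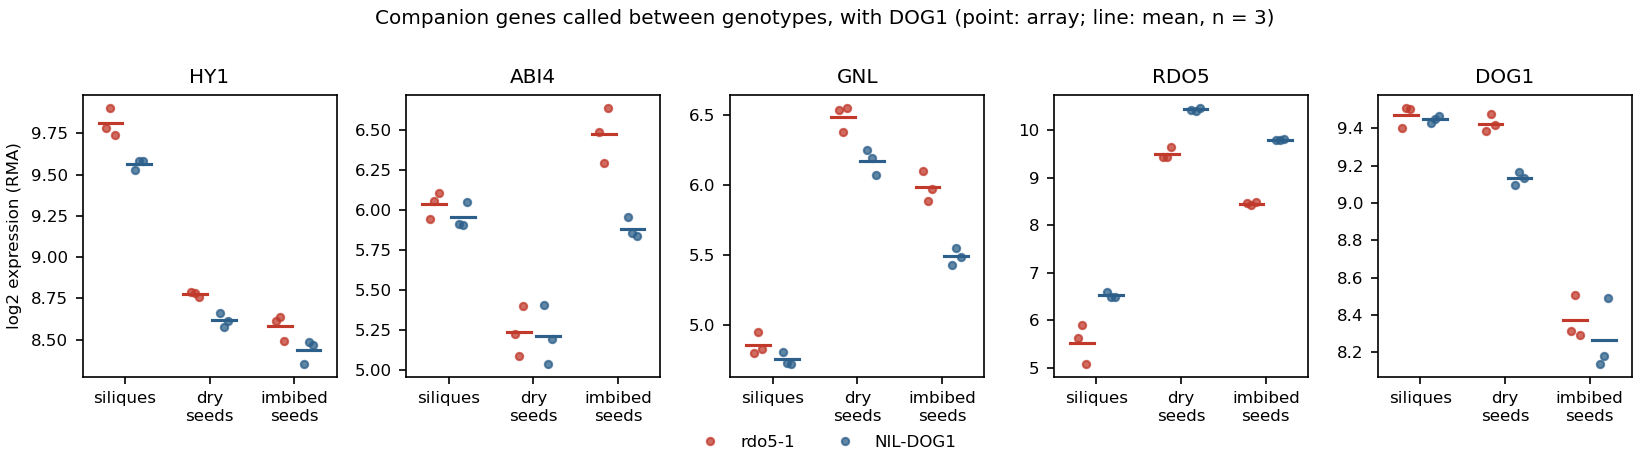
Log2 expression of HY1, ABI4, GNL, RDO5 and DOG1 by stage in rdo5-1 (left in each pair) and NIL-DOG1 (right), with points for arrays and lines for means of 3 arrays. GNL and ABI4 separate between genotypes in imbibed seeds and RDO5 is lower in rdo5-1 at each stage.

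Genes with the most similar course over the 6 groups were found for the 7 members whose group means spanned at least 1 log2 unit. Likeness was the root mean square (RMS) difference between the 6 group means, each gene centred on its own mean, over all genes of the table. SOM ran closest to AT2G34355 (RMS 0.05), the UDP-glucose epimerase gene UGE3 (0.08) and the galactinol synthase gene GolS2 (0.100). The nearest genes to PIF1 were farther off: CYP72A15 differed by 0.17, AT5G11420 by 0.199 and the histone deacetylase gene HDA3 by 0.22. PIF6 ran with RAP2.10 (0.07), the auxin receptor gene TIR1 (0.07) and AT4G18520 (0.09), and PIF3 with AT2G18090 (0.03), EDM2 (0.03) and TAF5 (0.03). PHYA was nearest to AT2G22400 (0.04), AT3G26920 (0.05) and LARP6b (0.06). SPT was nearest to AT2G35450 (0.04), AT2G46100 (0.05) and AT5G58000 (0.05), and MFT to NDL2 (0.03), CCR2 (0.06) and AT1G78995 (0.08).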

How the data were processed

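Levels were measured in 18 arrays of 6 groups, taken from the labels with their replicate numbers. The authors deposited 1 log2 value per gene and array. Per the submitters' processing notes these come from RMA, a method that corrects background, quantile-normalizes arrays and summarises probes. Its version, the probe sets and joint or separate normalization of the arrays are details not given in the sources used here. Precision is limited by the number of arrays. Array medians lay between 4.03 and 4.35. A TAIR10.1 gene table matched 29464 of the 30014 locus codes and gave symbols only.

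Everything else was computed from these values. Group means were fitted in 1 model with lmFit and eBayes of limma 3.58.1 (R 4.3.3), on 12 residual degrees of freedom, without a filter, and tested on simulated data. Each comparison was adjusted over all genes. Residuals of same-numbered arrays correlated at -0.05 to 0.17, so the numbers were not taken to pair the arrays. The members and lists were chosen with earlier results of these data known. The rule for names takes all members, RDO5 and DOG1, companions called between genotypes, and of each companion list up to 4 called genes of smallest adjusted p per stage comparison; of the last the text gives a part, without all their other comparisons. Marker genes are named where their list's mean rests on them. GNC, named beside its paralogue, was chosen after its values were seen. Alternatives were a filter on the dimmest 30% of genes, quantile normalization, median centring, trend and robust eBayes, array weights, the compared arrays alone, a replicate block and leaving out each array. Promoter and protein motifs were not analysed here.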

Additional observations from a re-analysis of the deposited data

How the results depend on the processing

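No called value changed direction under any of the alternatives: over 4735 recomputed values of the named genes, 70 calls were lost, 9 gained and 0 reversed, and 91 uncalled values changed sign. The members called were 10 in both comparisons of dry seeds with siliques in every leave-one-out fit (9 with arrays centred on their medians, which loses DAG1), 6 to 7 after imbibition in rdo5-1 and 6 in NIL-DOG1. In siliques the count between genotypes was 1 (PIF6, lower in rdo5-1) without the dimmest 30% of genes, after quantile normalization and with trend and robust eBayes, and 0 to 1 when leaving out 1 array. In the mean over stages it was 2 (PIF6 and PIF1) without the dimmest 30% and with array weights, 0 with arrays centred on their medians and 0 with the replicate block, and 0 to 1 when leaving out 1 array. Dropping dim genes leaves fewer genes to adjust over; the cause was not tested for the others. The replicate block also ended the DAG1 call after imbibition in rdo5-1 (adjusted p = 0.0605) and changed no other call of the named genes; 4 of 18 arrays correlated best with their own number. With only the compared arrays fitted, GNL (0.0973) and ABI4 (0.105) in imbibed seeds, RDO5 in siliques (0.387) and, for imbibition, DAG1 (0.0969) and HY1 (0.0921) in rdo5-1 and PHYD (0.0919) in NIL-DOG1 lost their calls, and the mean over stages had no such fit. RDO5 in dry seeds lost its call without rdo5-1 dry seed replicate 1 (0.0648) or 2 (0.057). After quantile normalization HY1 lost its mean-over-stages call (0.128) and PHYD its imbibition call in NIL-DOG1 (0.0849), and with centred arrays HY1 lost its imbibition call in rdo5-1 (0.0987). Among all genes, the counts called between genotypes, and so the shares set beside the members, moved more. When leaving out 1 array they lay between 38 and 78 in siliques (60 in the full fit; lowest without NIL-DOG1 silique replicate 2), 19 and 41 in dry seeds (41; without rdo5-1 dry seed replicate 1), 82 and 195 in imbibed seeds (190; without rdo5-1 imbibed seed replicate 1), and 166 and 291 in the mean over stages (285; without rdo5-1 imbibed seed replicate 3). By more than 1.5 times, the count moved without any 1 of 2, 6, 5 and 6 of the 18 arrays in that order. With only the compared arrays it was 10 (siliques), 6 (dry seeds) and 48 (imbibed seeds), with array weights 413 in imbibed seeds, and without the dimmest 30% 64 in dry seeds. The difference of the genotype effect between imbibed and dry seeds had 6 calls, 1 to 10 when leaving out 1 array (15 of 18 arrays moved it that far), 1 with the replicate block and 1 with the compared arrays alone; that between dry seeds and siliques had 15, and 12 to 21. Signal near background limits DAG1, ALC, HFR1 and FT and may limit PIF4 in seeds, and 3 arrays per group limit all small differences.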
